A study of Mus musculus with 6 samples.

Results

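The 45 genes described here are those of fibroblast growth factor (FGF) signaling, listed by symbol as 18 secreted ligands, 4 FGF homologous factors, 7 receptors and co-receptors, 1 adaptor and 15 feedback genes and membrane modulators. Of these 45, 41 were measured among the 20259 genes of the array that carried a name of their own. *Fgf2*, *Fgf11* and *Etv1* lay only in clusters with several gene names, *Frs2* had no entry in the annotation used, and these 4 were not analysed here. RNA came from the cochlear epithelium of wild type E15.5 mouse explants. In each of 3 experiments 1 RNA pool of explants cultured with the γ-secretase inhibitor DAPT (3.33 µM), which blocks Notch receptor cleavage, was compared with 1 pool cultured with its vehicle DMSO (control, 0.013%), on 6 Affymetrix Mouse Exon ST arrays. The labels give culture times of 23, 19 and 24 hours for experiments 1, 2 and 3, while the design text gives a single time. The medium of both groups contained added FGF (2.2 ng/ml) and EGF (2.5 ng/ml), so that no array shows the genes without exogenous ligand. Explants were cultured with attached mesenchyme and neurons, and the epithelial duct was then purified with enzymes. One DAPT label describes its extract as lysed tissue.

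Secreted FGFs bind receptor tyrosine kinases with the help of heparan sulfate and start the RAS-ERK cascade. ERK in turn switches on its own brakes, among them the Sprouty proteins and the ERK phosphatase DUSP6, and the ETS factors ETV4 and ETV5, which makes these genes commonly used readouts of FGF activity. In the mouse cochlea FGF20 is a ligand of the pro-sensory progenitors that acts through FGFR1, whereas FGF8 is made by inner hair cells (HCs) and acts through FGFR3 on the adjacent pillar cells, a type of supporting cell (SC).

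The signals are log2 values after RMA, each gene being represented by its brightest cluster, and a difference is DAPT minus control on that log2 scale. The array medians lay between 6.30 and 6.36. Cell type markers served as a check of the tissue and the treatment. At an unadjusted p under 0.05 in limma 10 of 10 listed HC genes were higher with DAPT, their mean log2 signal lying between 8.34 and 8.82 on control and between 9.12 and 9.64 on DAPT arrays, and 8 of 10 SC and pro-sensory genes were lower, with list means of 10.54 to 10.60 against 9.71 to 10.06. Of the SC and pro-sensory list *Cdkn1b*, at −0.25, and *S100a1*, at 0.02, were not called (limma, unadjusted p = 0.101 and 0.853). *Sox2*, *Jag1*, *Prox1*, *Hey1*, *Hey2*, *Hes5*, *Lfng* and *Fabp7* are in the study's lists of decreased genes, drawn from these arrays. Their decrease is thus not an independent check. Of the HC genes *Atoh1*, *Pou4f3*, *Calb2*, *Otof*, *Lhx3* and *Ptprq* are in the study's list of increased genes, also drawn from these arrays. Their increase is not an independent check either. The purified epithelium also gave signal for other cells. Mean log2 signals of 8 mesenchyme markers ranged from 8.62 to 9.77 on control and from 8.73 to 9.83 on DAPT arrays, and those of 10 neuronal markers from 7.78 to 8.77 and from 7.95 to 8.77. Of the 8 mesenchyme markers 0 and of the 10 neuronal markers 1, *Isl1*, differed at that threshold. Of 4 melanocyte markers *Dct* and *Tyr* were lower, with list means of 8.96 to 9.26 against 8.74 to 8.94. In whole tissue RNA fewer cells of a type and less RNA per cell cannot be told apart.

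With DAPT the progenitor ligands *Fgf20*, *Fgf3* and *Fgf10* were lower and *Fgf8* was higher, each in all 3 experiments. The feedback genes *Dusp6* and *Spry2* were lower as well, while *Fgfr4*, *Fgf5* and *Fgf7* were higher. These 9 genes are called here at the same threshold, in limma with the experiment as a block. Of 41 measured genes 4 (9.76%) were called higher, where 5.27% of all 20259 genes were, and 5 (12.2%) were called lower, where 2.59% of all genes were. After Benjamini-Hochberg adjustment over all genes, 0 of the 41 passed in limma, as did 0.0% of all genes, of which 1592 had an unadjusted p under 0.05. The lowest adjusted p was 0.361 among the 41 and 0.0591 among all genes, so that every call below is a call before correction. The median difference over the 41 genes was −0.02, beside 0.02 over all genes. The 32 genes without a call had differences between −0.21 and 0.21. Without the block that pairs the arrays of an experiment 1 gene (*Fgf8*) was called higher, where 1.94% of all genes were, and 2 (*Fgf20* and *Fgf3*) were called lower, where 0.982% were. Leaving out experiment 2 gave 0 calls higher among the 41 in limma, where 3.49% of all genes had an unadjusted p under 0.05 in that direction. It gave 5 of 41 (12.2%) lower, where 1.8% of all genes were. Leaving out experiment 3 gave 2 higher and 2 lower, where 3.55% and 2.71% of all genes were, so that these counts were near the background. Leaving out experiment 1 gave 3 of 41 higher and 4 of 41 (9.76%) lower, where 6.71% and 4.67% of all genes were.

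Direction over the experiments gave a wider view. Of the 41 genes 11 (26.8%) were higher with DAPT in all 3 experiments, where 19.1% of all genes were, and 10 (24.4%) were lower in all 3, where 10.5% of all genes were. All control arrays lay below all DAPT arrays for 3 genes (7.32%), namely *Fgf5*, *Fgf6* and *Fgf8*, where this held for 4.94% of all genes. For *Fgf6* the groups were barely apart, with 6.6474 on control array 2 and 6.6477 on DAPT array 2. All control arrays lay above all DAPT arrays for 3 genes (7.32%), namely *Fgf20*, *Fgf3* and *Fgf9*, where it held for 2.35% of all genes. For the other 35 genes the groups overlapped.

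**Figure D1:**
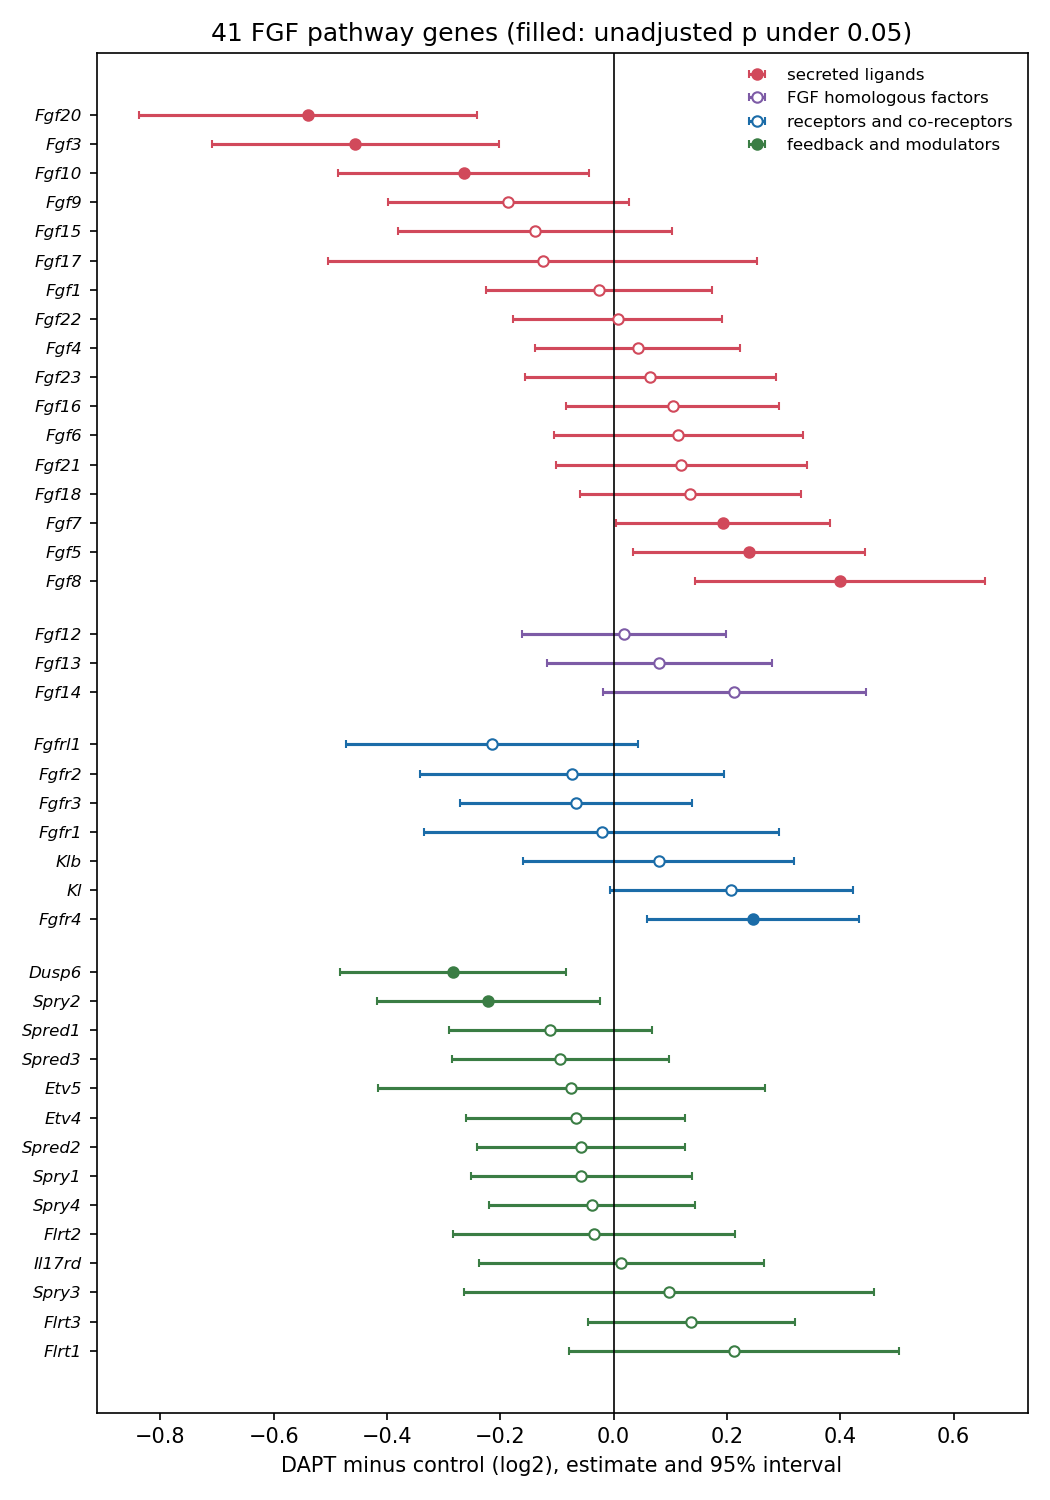
Difference between DAPT and control (log2, horizontal axis) for the 41 measured genes, with the 95% interval of limma, n = 3 pairs. Colors mark the 4 classes and filled points an unadjusted p under 0.05. The ligands span the whole range from −0.54 for *Fgf20* to 0.40 for *Fgf8*, and all other classes lie between −0.28 and 0.25.

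*Fgf20* had the largest decrease of the 41 genes. Its log2 signal was 8.80, 8.91 and 9.06 on the control arrays of experiments 1, 2 and 3, and 8.24, 8.67 and 8.25 on the DAPT arrays. The highest DAPT array, that of experiment 2, stayed below the lowest control array. The difference was −0.54 ± 0.12 (SE, n = 3 pairs), a 1.45-fold lower signal, with an unadjusted p of 0.00461 and an adjusted p of 0.361 in limma. Within the experiments the differences were −0.56, −0.24 and −0.82, the smallest being that of the 19 hour culture.

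*Fgf3*, a ligand of early otic development that binds the IIIb forms of FGFR1 and FGFR2, had log2 signals of 7.41, 6.97 and 7.31 with DMSO and of 6.70, 6.67 and 6.95 with DAPT. The groups did not overlap, though control array 2 and DAPT array 3 were close to each other. The signal was 1.37-fold lower with DAPT, a difference of −0.46 ± 0.10 (SE, n = 3 pairs; limma, unadjusted p = 0.00477, adjusted p = 0.363), and experiment 1 held the largest of the 3 differences, −0.71. *Fgf20* and *Fgf3* are also in the study's lists of decreased genes, which were drawn from these arrays, so that their decrease is not independent evidence for those lists. Both kept their call under each alternative in which they were fitted, including each experiment left out.

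*Fgf10*, which shares its main receptor FGFR2b with *Fgf3*, had log2 signals of 8.51, 7.96 and 8.10 on control arrays and of 8.16, 7.88 and 7.73 on DAPT arrays. The groups overlapped, with experiment 1 high in both. Within experiments DAPT was lower in 3 of 3, with differences of −0.35, −0.08 and −0.37, and the mean difference was −0.26 ± 0.09 (SE; limma, unadjusted p = 0.0269, adjusted p = 0.542). The call was lost without experiment 1 or without experiment 3, at unadjusted p of 0.0934 and 0.121 in limma.

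The remaining members of the *Fgf20* and *Fgf3* subfamilies did not follow them uniformly. *Fgf9*, a subfamily relative of *Fgf20* and a ligand of the non-sensory epithelium, had log2 signals of 8.42, 8.60 and 8.42 with DMSO and of 8.39, 8.29 and 8.20 with DAPT. The groups did not overlap, but in experiment 1 they were only 0.03 apart, and the difference of −0.19 ± 0.09 (SE) was not called (limma, unadjusted p = 0.0764). Without experiment 1 it was −0.26 with an unadjusted p of 0.0279. *Fgf16* differed by 0.10 and *Fgf22* by 0.01, neither being called. *Fgf7*, a mesenchymal ligand of the *Fgf3* subfamily, was dim and went the other way. Its log2 signal was 6.13, 6.23 and 5.90 with DMSO and 6.29, 6.35 and 6.18 with DAPT, a difference of 0.19 ± 0.08 (SE; limma, unadjusted p = 0.0467) that lost its call whichever experiment was left out, the unadjusted p then lying between 0.0719 and 0.206.

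*Fgf8* had the largest increase of the 41 genes. Its log2 signal was 8.64, 8.44 and 8.57 on control arrays and 8.80, 9.04 and 9.00 on DAPT arrays, so that the lowest DAPT array was above the highest control array. The signal was 1.32-fold higher with DAPT, a difference of 0.40 ± 0.10 (SE, n = 3 pairs), with an unadjusted p of 0.009 and an adjusted p of 0.397 in limma. The differences within experiments were 0.16, 0.60 and 0.43. Experiment 2, the shortest culture, held the largest, and without it the difference was 0.30 and no longer called (limma, unadjusted p = 0.0618). The HC list, which does not hold *Fgf8*, was higher in the same 3 experiments, by 0.54, 0.78 and 0.88 in its mean log2 signal, with the smallest difference in experiment 1 as for *Fgf8*. The part of HC number in the *Fgf8* difference was not tested. The pillar cell markers showed no common shift, with 1 of 4, *S100b*, called higher and list means of 8.30 to 8.69 with DMSO and 8.52 to 8.61 with DAPT.

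**Figure D2:**
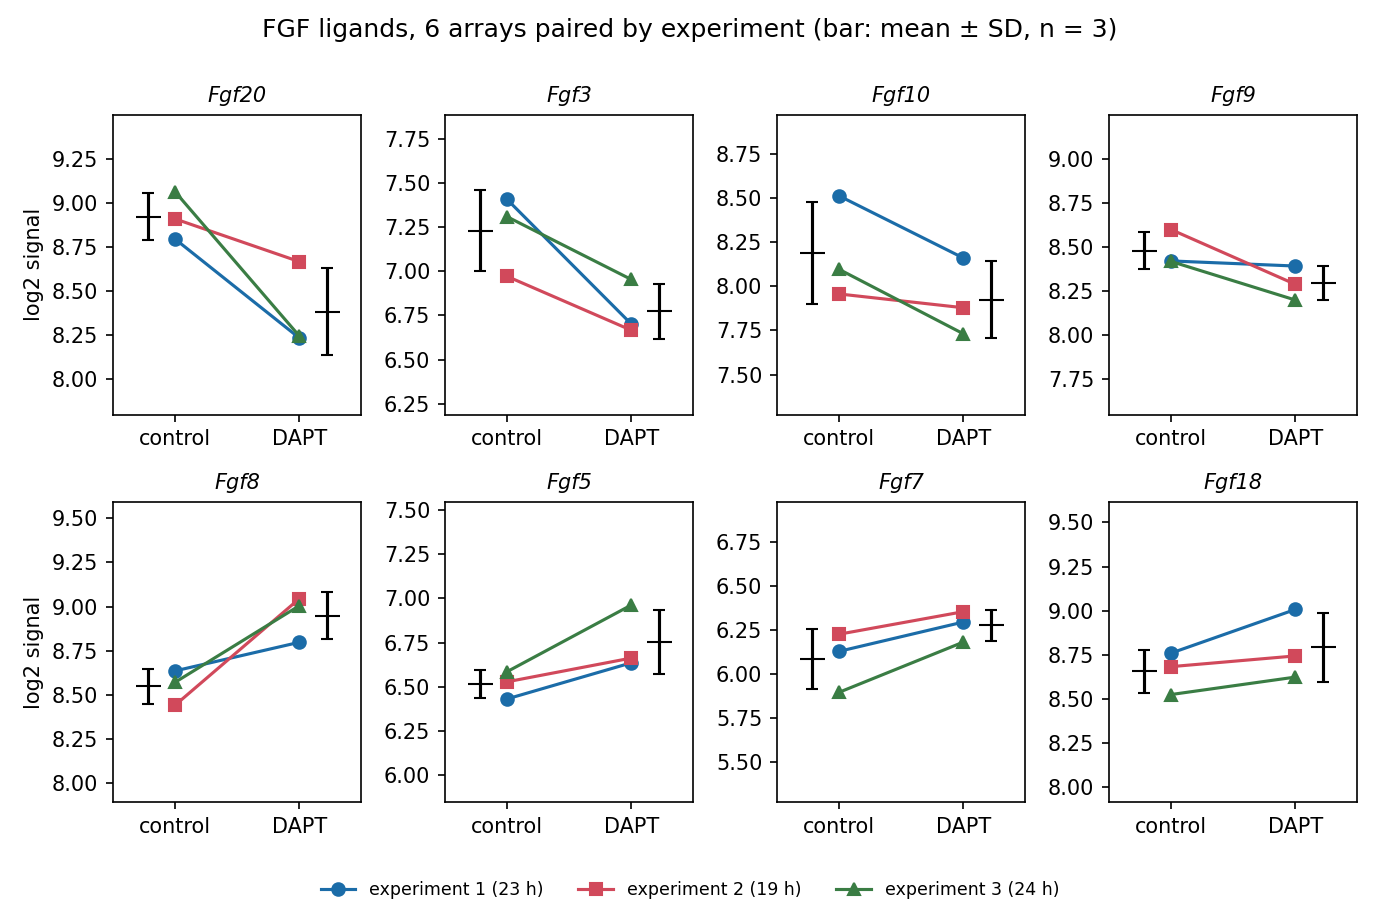
Log2 signal of 8 FGF ligands on the 6 arrays (vertical axis, the same span of log2 units in each panel), with lines joining control and DAPT of 1 experiment and bars giving mean ± SD, n = 3. *Fgf20* and *Fgf3* are lower and *Fgf8* is higher with DAPT along every line, without overlap of the groups, while the *Fgf10* groups overlap, with control at 7.96 to 8.51 and DAPT at 7.73 to 8.16.

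The direct comparison of the progenitor ligands with *Fgf8* was made on the differences within each experiment, which removes what control and DAPT of an experiment share. The *Fgf20* difference minus the *Fgf8* difference was −0.72, −0.85 and −1.25 in experiments 1, 2 and 3, with a mean of −0.94 (SD 0.28, n = 3 pairs). For *Fgf3* the values were −0.87, −0.91 and −0.79, with a mean of −0.86 (SD 0.06), the narrowest spread of the 3 comparisons. For *Fgf10* they were −0.51, −0.68 and −0.80, with a mean of −0.66 (SD 0.14). All 9 values had the same sign, which follows from *Fgf20*, *Fgf3* and *Fgf10* being lower and *Fgf8* higher in all 3 experiments. That sign, and with it the p-value of the test below, was fixed by these directions and adds no evidence to them. The two-sided exact permutation test by sign changes gave p = 0.25 for each comparison, which is the smallest p that 3 pairs allow, so that none can pass a threshold of 0.05. The 3 comparisons share the *Fgf8* values and are not independent of each other.

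The SC and pro-sensory list, which holds none of these ligands, differed by −0.78, −0.55 and −0.86 in its mean log2 signal in experiments 1, 2 and 3. *Fgf20*, *Fgf10*, *Dusp6* and *Spry2* likewise had their smallest decreases in experiment 2. With 3 experiments this order is a description only, and the part of SC number in the decreases was not tested. Most genes of the SC and pro-sensory list are named as Notch-regulated by the study, so its mean does not measure SC number alone. *Fgf3* had −0.31 in experiment 2 and −0.36 in experiment 3, which are nearly equal.

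**Figure D3:**
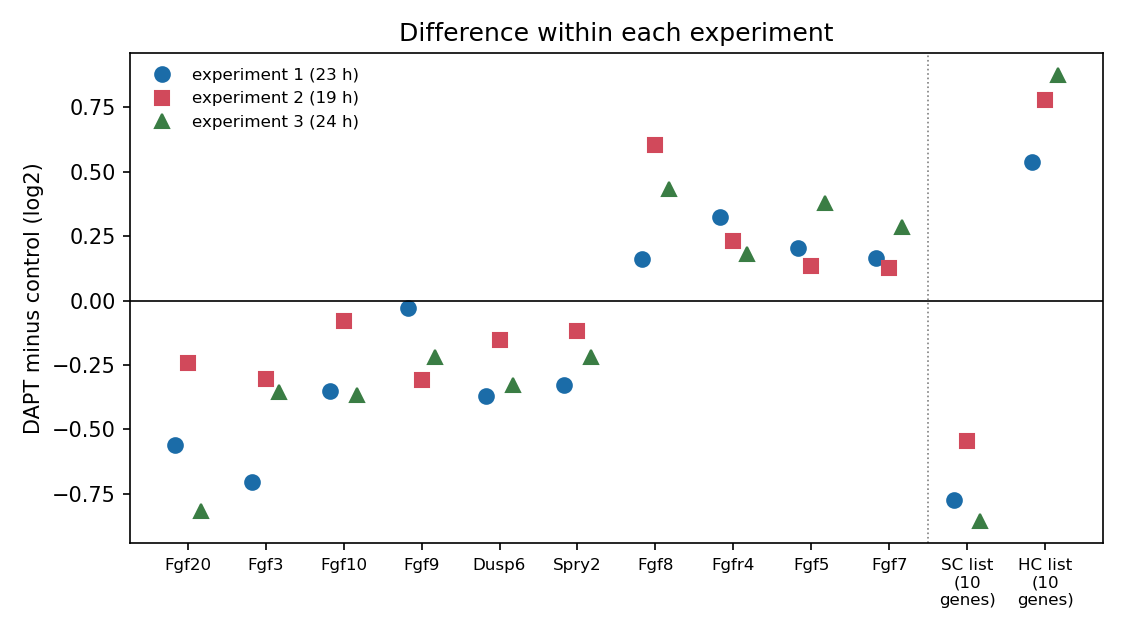
DAPT minus control (log2, vertical axis) in each of 3 experiments for 10 FGF pathway genes and, right of the dotted line, for the mean of 10 SC and pro-sensory and 10 HC markers. Each point is 1 pair of arrays. The 6 genes on the left lie below 0 and the 4 on the right above 0 in all 3 experiments, with *Fgf9* in experiment 1 closest to 0 at −0.03.

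*Fgf5*, a ligand best known from the hair follicle, was dim and higher with DAPT. Its log2 signal was 6.43, 6.53 and 6.59 with DMSO and 6.64, 6.66 and 6.96 with DAPT, a difference of 0.24 ± 0.08 (SE; limma, unadjusted p = 0.0291) that lost its call whichever experiment was left out, at an unadjusted p from 0.0526 to 0.156. Its subfamily members *Fgf4* and *Fgf6* differed by 0.04 and 0.11 without a call, and in experiment 2 *Fgf6* was level in both groups at 6.65. The *Fgf8* subfamily was mixed. *Fgf17* differed by −0.39, 0.34 and −0.33 in the 3 experiments, whereas *Fgf18* was higher in all 3 at 0.14 ± 0.08 (SE; limma, unadjusted p = 0.138). *Fgf1* and the endocrine ligands *Fgf15*, *Fgf21* and *Fgf23* had differences between −0.14 and 0.12 and no call. Among the FGF homologous factors, which stay inside the cell and bind sodium channels, *Fgf12* and *Fgf13* differed by 0.02 and 0.08, and *Fgf14* by 0.21 ± 0.09 (SE; limma, unadjusted p = 0.065), with 0.42 in experiment 3. In all, 3 of 17 secreted ligands were called higher and 3 lower, where 5.27% and 2.59% of all genes were. The median difference of these ligands was 0.04.

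The receptors and co-receptors had differences between −0.21 and 0.25. Of these 7, 1 was called higher and 0 lower, where 5.27% and 2.59% of all genes were. *Fgfr1*, the receptor of the pro-sensory progenitors, had log2 signals of 9.62, 9.56 and 9.53 with DMSO, which are close together, and of 9.90, 9.54 and 9.19 with DAPT. The differences of 0.29, −0.02 and −0.33 went in opposite directions, so that the mean of −0.02 had a 95% interval from −0.34 to 0.29 in limma. *Fgfr2* had 8.32, 8.66 and 8.66 against 8.52, 8.43 and 8.47, with a difference of −0.07 (−0.34 to 0.20). *Fgfr3*, the receptor through which pillar cells receive FGF8, had 9.07, 8.85 and 8.85 against 9.01, 8.90 and 8.65. Its difference of −0.07 (−0.27 to 0.14) leaves a change of either sign within the interval.

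*Fgfr4* was the receptor with a call. Its log2 signal was 8.79, 8.97 and 9.28 on control arrays and 9.11, 9.21 and 9.46 on DAPT arrays. The groups overlapped, with experiment 3 high in both, but within each experiment DAPT was higher, by 0.33, 0.23 and 0.18. The difference was 0.25 ± 0.08 (SE; limma, unadjusted p = 0.0182, adjusted p = 0.474). Without experiment 1 or without experiment 2 the unadjusted p was 0.0566 and 0.0824. *Fgfrl1*, a receptor without a kinase domain, had 10.48, 10.03 and 9.88 against 10.32, 10.01 and 9.41 and was lower in 3 of 3, with a difference of −0.21 ± 0.10 (SE; limma, unadjusted p = 0.087). Of the klotho co-receptors, which serve the endocrine ligands, *Kl* was higher in 3 of 3 with a difference of 0.21 ± 0.09 (SE; limma, unadjusted p = 0.0557), and *Klb* differed by 0.08.

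The feedback genes, taken as readouts of ERK activity, were counted together with the membrane modulators. These 14 genes gave 0 calls higher and 2 lower, where 5.27% and 2.59% of all genes were called. Their median difference was −0.06. *Dusp6* had log2 signals of 11.18, 11.22 and 11.02 on control arrays and of 10.81, 11.07 and 10.70 on DAPT arrays. Only the DAPT array of experiment 2 lay above the lowest control array. The difference was −0.28 ± 0.08 (SE, n = 3 pairs; limma, unadjusted p = 0.0135, adjusted p = 0.441), and without experiment 3 the unadjusted p was 0.0609. *Spry2* had 11.09, 10.63 and 10.13 against 10.76, 10.52 and 9.91, so that its groups overlapped widely. Within experiments it differed by −0.33, −0.12 and −0.22, with a mean of −0.22 ± 0.08 (SE; limma, unadjusted p = 0.0332, adjusted p = 0.572). The call was lost whichever experiment was left out, at unadjusted p from 0.062 to 0.106.

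The other Sprouty genes were not called. *Spry1* had log2 signals of 9.77, 9.45 and 8.92 with DMSO and of 9.60, 9.47 and 8.91 with DAPT, and *Spry4* had 10.20, 10.91 and 10.65 against 10.22, 10.83 and 10.60. Their differences of −0.06 and −0.04 had 95% intervals from −0.25 to 0.14 and from −0.22 to 0.14 in limma. *Spry3* was dim, and its difference of 0.10 was made up of 0.52, −0.21 and −0.01 in experiments 1, 2 and 3. The Spred proteins hold RAS in check at the membrane. *Spred1* had 9.97, 10.25 and 10.11 against 9.87, 10.17 and 9.95, *Spred2* had 9.70, 9.86 and 9.75 against 9.63, 9.88 and 9.63, and *Spred3* differed by −0.09. Differences of the Spred genes lay between −0.11 and −0.06, and none was called. Dimmer clusters of the same genes could differ from the brightest one, as with −0.45 for the second *Spry3* cluster and −0.21 and 0.32 for 2 further *Spred2* clusters.

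The ETS genes, which are transcribed on FGF signaling, were not called either. *Etv4* had log2 signals of 8.37, 8.35 and 8.16 against 8.20, 8.34 and 8.14, lower in 3 of 3, with a difference of −0.07 (95% interval −0.26 to 0.13 in limma). *Etv5* had 10.71, 9.93 and 9.87 against 10.37, 10.25 and 9.66. Its differences of −0.34, 0.32 and −0.21 changed sign between experiments, and the mean of −0.08 had an interval from −0.42 to 0.27. A dimmer *Etv5* cluster, with 9.69, 9.42 and 9.32 against 9.66, 9.34 and 9.08, was lower with DAPT in each experiment. Its difference was −0.11. *Il17rd*, an inhibitor of FGF receptor signaling also known as Sef, had 11.30, 11.50 and 11.00 against 11.13, 11.46 and 11.25, with a difference of 0.01 (−0.24 to 0.27). The dimmer *Il17rd* clusters differed by 0.26 and 0.04, both being higher with DAPT in each experiment. *Flrt3*, a membrane protein that binds FGF receptors, had 8.04, 8.55 and 8.77 against 8.15, 8.65 and 8.97 and was higher in 3 of 3, with a difference of 0.14 ± 0.07 (SE; limma, unadjusted p = 0.114). *Flrt1* and *Flrt2* differed by 0.21 and −0.03 and changed sign between experiments.

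**Figure D4:**
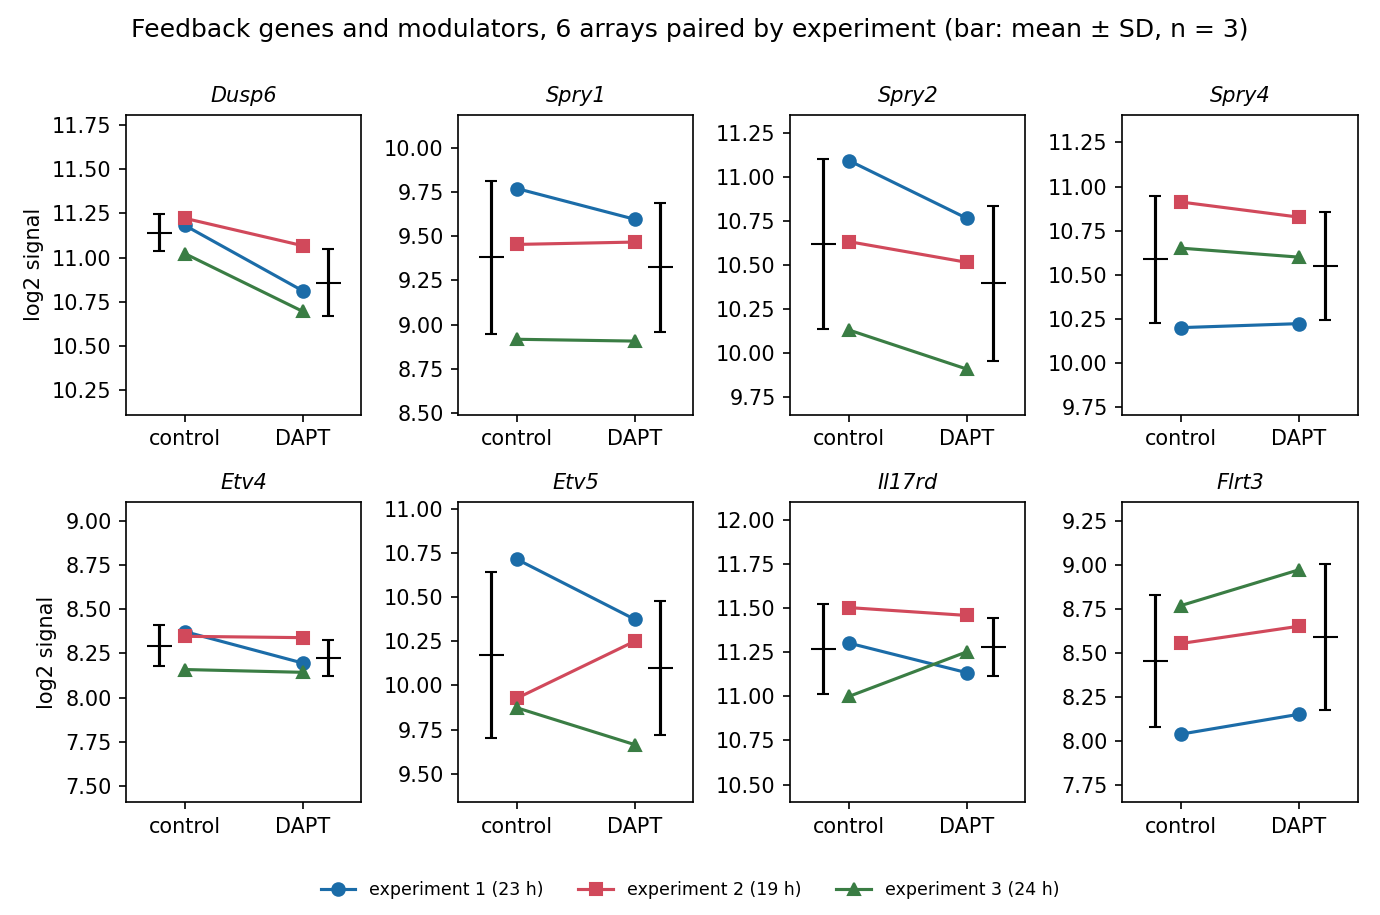
Log2 signal of 8 feedback genes and modulators on the 6 arrays (vertical axis, the same span of log2 units in each panel), with lines joining control and DAPT of 1 experiment and bars giving mean ± SD, n = 3. Lines of the 3 experiments cross for *Etv4* and *Il17rd* and keep their order in the other panels. *Spry2*, for example, has means of 10.93, 10.57 and 10.02 by experiment.

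*Spry1*, *Spry2*, *Spry4* and *Flrt3* differed more between experiments than between treatments. The test was chosen after the signals had been seen. In the same limma fit the experiment term passed an adjusted p of 0.05 for 4 of 41 genes (9.76%), *Spry2* (0.0254), *Flrt3* (0.0271), *Spry1* (0.03) and *Spry4* (0.0359), where 5.17% of all genes passed. *Spry1* and *Spry2* were highest in experiment 1 and lowest in experiment 3, with means over both arrays of 9.68, 9.46 and 8.91 for *Spry1* and of 10.93, 10.57 and 10.02 for *Spry2*. *Spry4* and *Flrt3* were lowest in experiment 1, with means of 10.21, 10.87 and 10.63 for *Spry4* and of 8.10, 8.60 and 8.87 for *Flrt3*. The range of the 3 experiment means had a median of 0.71 over the 4 Sprouty genes and of 0.58 over the 14 feedback genes and modulators. It was 0.40 over the 5 receptors, 0.24 over the 17 ligands and 0.22 over all genes. These sets are not matched for signal. Among genes above the median signal 14.5% passed the experiment term, and 6 of 24 of the genes described here did. With the mean of all clusters in place of the brightest, *Flrt3* no longer passed, at an adjusted p of 0.07. Experiments differed in culture time and in their pools of explants at once, and these cannot be told apart. The mean log2 signal of the mesenchyme list was 8.68, 9.33 and 9.80 in experiments 1, 2 and 3, that of the endothelium list 7.45, 8.18 and 8.55, and that of the neuron list 7.87, 8.75 and 8.74. The part of these cells in the experiment differences was not tested. Within experiments 1, 2 and 3 the list means differed between DAPT and control by 0.11, 0.03 and 0.06 for mesenchyme, by 0.36, −0.09 and −0.01 for endothelium, of which *Kdr* was called higher, and by 0.17, 0.05 and −0.05 for neurons.

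RefSeq promoter windows (GRCm38.p6, from 250 bases before to 50 bases after the start) were at hand for 34 of the 45 genes, in 43 windows, among them *Fgf3*, *Fgf10*, *Dusp6* and *Spry2*. These 4 are shown because they were called lower together, and DAPT blocks the Notch pathway whose DNA-binding factor is RBPJ, while ETS factors act at FGF targets. *Fgf20* and *Fgf8* are named only. Capitals mark the letters TGGGAA of an RBPJ motif core or CCGGAA of an ETS motif core, searched on both strands. These letters do not overlap with each other in the 4 windows. The windows are chr7:144838362-144838661 on the plus strand for *Fgf3*, chr13:118714449-118714748 on the plus strand for *Fgf10*, chr10:99262981-99263280 on the plus strand for *Dusp6* and chr14:105896770-105897069 on the minus strand for *Spry2*, each written 5′ to 3′ along its gene.
Fgf3: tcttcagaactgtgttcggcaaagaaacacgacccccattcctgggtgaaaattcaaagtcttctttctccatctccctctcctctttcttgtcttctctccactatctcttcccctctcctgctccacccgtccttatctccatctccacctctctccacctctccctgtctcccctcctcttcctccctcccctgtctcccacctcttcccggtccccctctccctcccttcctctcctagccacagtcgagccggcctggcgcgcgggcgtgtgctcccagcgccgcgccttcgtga
Fgf10: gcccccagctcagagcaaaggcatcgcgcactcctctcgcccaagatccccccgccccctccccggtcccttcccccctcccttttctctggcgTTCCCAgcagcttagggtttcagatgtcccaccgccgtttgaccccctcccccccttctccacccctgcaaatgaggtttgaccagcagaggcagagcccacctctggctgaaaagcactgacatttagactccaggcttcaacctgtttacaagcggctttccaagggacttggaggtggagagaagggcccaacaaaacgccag
Dusp6: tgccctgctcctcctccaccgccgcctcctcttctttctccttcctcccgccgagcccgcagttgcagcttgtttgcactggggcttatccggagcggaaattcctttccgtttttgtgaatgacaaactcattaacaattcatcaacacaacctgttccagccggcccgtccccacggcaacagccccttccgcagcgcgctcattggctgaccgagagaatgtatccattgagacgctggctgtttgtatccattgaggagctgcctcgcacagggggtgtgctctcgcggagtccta
Spry2: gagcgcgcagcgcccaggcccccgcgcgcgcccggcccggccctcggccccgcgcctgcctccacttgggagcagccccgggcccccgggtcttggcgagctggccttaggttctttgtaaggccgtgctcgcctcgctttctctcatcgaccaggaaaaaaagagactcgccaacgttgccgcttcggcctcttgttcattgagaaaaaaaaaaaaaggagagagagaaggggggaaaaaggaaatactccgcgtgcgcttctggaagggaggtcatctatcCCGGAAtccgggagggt

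*Fgf10* held the RBPJ letters once, as TTCCCA on the strand shown and thus TGGGAA on the other, 156 bases before the start. *Spry2* held the ETS letters once, 33 bases after the start, and the windows of *Fgf3* and *Dusp6* held neither. RBPJ letters were in 8 of 43 windows (18.6%), beside 25.6% of all 32851 windows, and ETS letters in 7 of 43 (16.3%), beside 14.9% of all windows. A match describes the letters only, and a window without one says nothing about binding.

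Beyond the 45 genes, 82 other genes of the pathway or acting beside it were listed in 6 groups, and 73 of them were measured. Of these 73, 1 was called higher and 7 lower, where 5.27% and 2.59% of all 20259 genes were. The 7 include *Sox2* and *Prox1*, which are also in the SC list and in the study's lists of decreased genes from these arrays. Of 21 measured genes for heparan sulfate and FGF carriers, 3 were lower. *Gpc6*, a glypican, had log2 signals of 7.65, 7.39 and 7.42 with DMSO and of 7.12, 7.15 and 7.12 with DAPT, without overlap, a difference of −0.36 ± 0.09 (SE; limma, unadjusted p = 0.00697). *Hs6st2*, which adds sulfate to heparan chains, differed by −0.22, and *Sdc2*, a syndecan, by −0.19. Without experiment 2 or without experiment 3 only 1 of this group was called. Of 16 adaptors and RAS-ERK core genes 1 was lower, *Rasa1*, an inhibitor of RAS, at −0.21. Of 12 ERK output genes 1 was lower, *Fos*, at −0.43, with log2 signals of 10.77, 11.43 and 11.20 against 10.75, 10.96 and 10.40. Both of these groups held 0 calls without experiment 2 and without experiment 3. Among 7 other ERK phosphatases and brakes and 9 EGF receptors and ligands 0 were called in limma, at an unadjusted p under 0.05, and 1 of each group was called under some alternatives.

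Of 8 measured transcription factors known to act beside FGF genes in the ear, *Sox2* and *Prox1* were lower and *Hmx3* was higher. *Sox2*, which marks pro-sensory cells and is also in the SC list, differed by −0.85 ± 0.16 (SE; limma, unadjusted p = 0.00225), a larger difference than that of any FGF pathway gene listed above. *Prox1*, also in both lists, differed by −0.82, and *Hmx3* by 0.24. *Pax2*, *Eya1*, *Gata3*, *Tbx1* and *Lmx1a* were not called.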

How the data were processed

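RNA pools of cochlear epithelium, 3 control and 3 DAPT, were hybridised to 1 exon array each. The authors normalized the scans in Partek with RMA and deposited them as log2 signals, 1 per transcript cluster and array. Cluster coordinates, for which the submitters' processing notes give the build mm9, are left out. The number of arrays limits the precision.

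Gene names came from the platform annotation, with symbols updated through GRCm38.p6. Of 115830 clusters 25539 carried 1 gene and were used, 2300 several and 87991 none, and 24941 of the 25539 received a current symbol, for 20259 genes. Each gene was represented by its brightest cluster, averaged over all 6 arrays. Of the 41 genes 6 had several clusters, and 17 lay below the median gene mean of 7.78.

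Differences between DAPT and control were fitted in limma 3.58.1 (R 4.3.3), blocked by experiment, with Benjamini-Hochberg adjustment over all genes. The study's results name a one-way model, which was run as an alternative together with fits without the block, a trend and robust prior, further normalizations, signal filters, the mean of all clusters, array weights and each experiment left out. The numbers pair the samples, since the labels and design give 1 control and 1 DAPT sample per experiment. Deviations from the group means correlated at 0.556, 0.434 and 0.513 within experiments and at most at 0.0092 between them. The 3 deviations of a gene in a group sum to 0, so positive values within experiments force low or negative ones between them. Whether pools of different experiments share litters is not given in the sources used here. Contrasts between genes used an exact sign permutation test. The fit was tested on simulated data. Tables and figures used Python 3.11.15, pandas 2.3.3, numpy 2.4.6 and matplotlib 3.10.9.

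Signals per array were given for the ligands, receptors and feedback genes chosen by name and for each other listed gene with an unadjusted p under 0.05, and the rest by ranges and counts. Of other lists at most 4 genes with such a p were named. The genes and lists were chosen with earlier results of these data known.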

Additional observations from a re-analysis of the deposited data

How the results depend on the processing

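Without the block for the experiment pairs 1 gene was called higher and 2 lower, where 1.94% and 0.982% of all genes were. The methods' one-way comparison gave the same counts of 1 and 2, where 2.42% and 1.06% of all genes were called. The calls left were *Fgf8* higher and *Fgf20* and *Fgf3* lower. Above the median signal 24 genes remained. Of these 24, 2 were called higher and 4 lower, where 4.65% and 3.29% of all genes above that signal were. With 1 experiment left out the calls ranged from 0 to 3 higher and from 2 to 5 lower, while the shares of all genes ranged from 3.49% to 6.71% higher and from 1.8% to 4.67% lower. After adjustment 0 of the 41 genes passed in limma under any of these alternatives. Of all 20259 genes 6 passed with the trend and robust prior, 6 with the mean of all clusters and 30 with array weights. Of the genes above the median signal 26 of 10129 passed, and of those above the 25th percentile 17 of 15194. Differences near 0 changed sign, and the cause was not tested. *Il17rd* was −0.0018 with median centring, *Spred2* 0.0002 with the mean of all clusters and *Etv5* 0.0856 with array weights. With 1 experiment left out *Il17rd* ranged from −0.1058 to 0.1039, *Fgfr1* from −0.1749 to 0.1357, *Fgfr2* from −0.2125 to 0.0041, *Fgfr3* from −0.1257 to 0.0001, *Spry1* from −0.092 to 0.0015 and *Etv5* from −0.2738 to 0.0571. Of 260 alternative values over 22 named genes 218 kept direction and side of the threshold, 31 lost a call, 2 gained one and 9 changed sign. Of these 22 genes *Fgf20* and *Fgf3* kept their calls in all alternatives run with them, 12 for *Fgf20* and 11 for *Fgf3*, which lay below the median signal. The experiment term was refitted under 5 alternatives only. It passed for the 4 named genes with the trend and robust prior, quantile normalization and median centring, for 4 genes without *Flrt3* with the mean of all clusters, and for 6 of 24 above the median signal, where 14.5% of all genes passed.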
